A study of Mus musculus with 20 samples.

Results

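The 9 genes described here encode the enzymes of the methionine cycle and its outlets to choline and cysteine, namely Mat1a, Mat2a, Gnmt, Pemt, Ahcy, Bhmt, Cbs, Cth and Shmt1. They were taken by gene symbol from the 22298 genes listed for each liver, all 9 were found, and all 9 were among the 12342 genes that passed the filter on low counts. Bulk RNA was sequenced from 1 liver sample each of 20 male mice of the obese Lepr db/db strain, in which the leptin receptor does not signal. Every mouse was injected at 5 weeks of age, by the tail vein, with an adeno-associated virus 8 (AAV8), which carried either a non-targeting shRNA or 4 shRNAs against Pparg, the gene of the nuclear receptor PPARγ. The mice were then gavaged once daily for 4 weeks with vehicle or with benzbromarone (BBR), a uricosuric drug used in gout, at 25 mg per kg. The groups of 5 mice were Vec (labelled control), Vec+BBR (labelled benzbromarone), shRNA (labelled PPAR knockdown) and shRNA+BBR (labelled PPAR knockdown and benzbromarone). These treatment labels name no vector, vehicle or Pparg, and the groups were matched to the study's methods. On that reading, Vec and Vec+BBR carried the non-targeting vector, and shRNA and shRNA+BBR carried the Pparg shRNAs. Vec and shRNA received vehicle, and the other groups received BBR. All 4 groups thus carried the db/db mutation and an AAV8 vector, no lean or uninjected mice were included, and the promoter that drives the shRNAs is not given in the sources used here.

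In the liver, methionine is activated to S-adenosylmethionine (SAM), the methyl donor of the cell, by methionine adenosyltransferases, Mat1a in mature hepatocytes and Mat2a in most other cells. Methyltransferases spend SAM, among them Gnmt, which methylates glycine to sarcosine, and Pemt, which converts phosphatidylethanolamine into phosphatidylcholine. Ahcy splits the S-adenosylhomocysteine that remains and releases homocysteine. Homocysteine is either methylated back to methionine by Bhmt, which takes the methyl group from the choline product betaine, or passed through Cbs and Cth to cysteine, while Shmt1 loads serine carbon onto folate. Mice without Mat1a, Gnmt or Bhmt are known for fatty liver, as are mice without Pemt on a diet poor in choline.

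Pparg was checked first because it was the target of the shRNAs. Its level in CPM (counts per 1000000 counts, after scaling for library composition) was 16.4 to 35.9 in Vec, 28 to 38.3 in Vec+BBR, 3.24 to 7.31 in shRNA and 7.19 to 21.8 in shRNA+BBR. Pparg fell by 2.12 on the log2 scale in shRNA against Vec (SE 0.28, adjusted p = 4.47e-05) and by 1.20 in shRNA+BBR against Vec+BBR (SE 0.26, adjusted p = 0.00843). Within the knockdown vector, it was higher with BBR by 1.28 (SE 0.28, adjusted p = 0.00773). Library totals were 17432904 to 25024099 counts, and mitochondrial genes took 9.14% to 16.2% of them. The tissue label was checked with hepatocyte markers such as Alb, whose summed level over the 7 measured markers was 90700 to 152000 CPM, whereas the adipocyte markers Adipoq, Lep and Plin1 summed to at most 1.14 CPM in any liver.

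Compared per transcript length, in FPKM (fragments scaled to transcript length and library size), Bhmt was the most abundant of the 9 genes, with a mean of 2900 FPKM over the 20 livers and rank 27 among all genes. Mat1a (1670 FPKM, rank 48), Gnmt (1540 FPKM, rank 53) and Ahcy (1220 FPKM, rank 63) followed. Lower levels were found for Cth (365 FPKM), Pemt (239 FPKM), Cbs (157 FPKM) and Shmt1 (73.6 FPKM), and Mat2a was the lowest at 34.9 FPKM with rank 1566. Neighbours in this order were not always apart. In the Vec livers, Mat1a (1310 to 2970 FPKM) overlapped with Gnmt (1160 to 2250 FPKM), and in Vec+BBR Cth and Pemt were almost level (208 ± 34.1 and 209 ± 15.4 FPKM, SD, n = 5). Together the 9 genes took 1.57% to 2.64% of all counts in Vec, 1.23% to 1.5% in Vec+BBR, 1.97% to 2.35% in shRNA and 1.56% to 2.14% in shRNA+BBR. The Vec+BBR range was below those of the other 3 groups.

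The 9 genes are spread over the genome, in GENCODE M21 on GRCm38. Bhmt is on chromosome 13 (93616675 to 93637961, minus strand), Mat1a on chromosome 14 (41105035 to 41124412, plus strand) and Mat2a on chromosome 6 (72432799 to 72439558, minus strand). Gnmt (46725664 to 46729168) and Cbs (31608894 to 31637238) are both on the minus strand of chromosome 17, and Pemt (59970614 to 60046489) and Shmt1 (60788104 to 60811718) are both on the minus strand of chromosome 11. Ahcy is on chromosome 2 (155059310 to 155074497, minus strand) and Cth on chromosome 3 (157894248 to 157925077, minus strand). All are protein coding.

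RefSeq promoter windows of GRCm38.p6, from 250 bases before to 50 after a transcription start, were matched for 7 of the 9 genes, in 8 windows because Pemt has 2 starts. Mat1a and Cth were not matched. Bhmt, Mat2a and Shmt1 are shown as 3 kinds of result: Bhmt was lower in Vec+BBR than in Vec and higher in shRNA+BBR than in Vec+BBR, Mat2a passed the test in no comparison, and Shmt1 was the gene that passed in shRNA against Vec. Each is printed 5′ to 3′ on the gene's strand, and capitals mark the nuclear receptor hexamer AGGTCA or the CCAAT box, on either strand. The RefSeq starts of Bhmt and Shmt1 lie inside the GENCODE genes.
Bhmt promoter, chr13:93637709-93638008, minus strand: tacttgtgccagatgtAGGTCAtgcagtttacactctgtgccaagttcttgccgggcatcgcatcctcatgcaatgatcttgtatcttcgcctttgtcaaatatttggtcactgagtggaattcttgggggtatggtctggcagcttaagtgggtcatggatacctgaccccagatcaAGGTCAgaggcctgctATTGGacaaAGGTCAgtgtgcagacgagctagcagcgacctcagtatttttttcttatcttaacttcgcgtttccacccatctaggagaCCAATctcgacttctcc
Mat2a promoter, chr6:72439507-72439806, minus strand: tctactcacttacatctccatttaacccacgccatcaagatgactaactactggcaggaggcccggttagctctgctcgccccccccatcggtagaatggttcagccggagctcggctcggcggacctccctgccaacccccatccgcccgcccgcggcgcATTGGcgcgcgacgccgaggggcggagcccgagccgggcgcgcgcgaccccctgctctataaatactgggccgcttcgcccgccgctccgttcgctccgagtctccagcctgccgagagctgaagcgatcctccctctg
Shmt1 promoter, chr11:60811216-60811515, minus strand: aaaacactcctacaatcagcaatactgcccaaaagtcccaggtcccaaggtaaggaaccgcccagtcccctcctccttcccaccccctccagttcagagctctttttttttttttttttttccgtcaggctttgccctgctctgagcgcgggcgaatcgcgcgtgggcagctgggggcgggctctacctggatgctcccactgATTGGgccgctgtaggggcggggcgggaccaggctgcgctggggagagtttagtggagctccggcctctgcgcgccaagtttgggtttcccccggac
The Bhmt window held AGGTCA at 3 places, which begin at −234, −72 and −47 from the start, and 0.183% of the 32851 RefSeq windows searched held 3 or more. This limit of 3 is the Bhmt count itself, the highest of the 8 windows, so the share is a description only. The copies at −72 and −47 lie within the GENCODE gene. Gnmt held it once (−181, reverse strand) and Ahcy once (−205, reverse strand), and the other windows did not. Over all windows, 16.3% held at least 1. The DR1 element, a direct repeat of AGGTCA with 1 base between the copies, is the form that PPAR and RXR dimers bind. Only exact copies of it were searched, and they were in none of the 8 windows and in 0.0396% of all windows. Exact copies are so rare that their absence here cannot tell whether these genes have PPAR elements. CCAAT was found for all 7 genes, for Pemt at 1 of its 2 starts, and in 37.4% of all windows. The GC box GGGCGG was found for Mat2a, Ahcy, Cbs and Shmt1 and in 35.7% of all windows. The Mat2a window was 67% G and C with 34 CpG dinucleotides and that of Shmt1 60.7% with 17, against 48% with 8 for Bhmt and medians of 52.7% and 7 over all windows. These matches describe letters in the windows, and binding was not measured.

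The first comparison was Vec+BBR against Vec, which addresses what BBR changed in livers with PPARγ left in place. BBR-treated livers had lower levels of 7 of the 9 genes: Mat1a, Gnmt, Pemt, Ahcy, Bhmt, Cbs and Cth. The steps that make SAM, spend it on glycine and phosphatidylethanolamine, release homocysteine, and send homocysteine to methionine or cysteine were all among them, and the fitted levels were 0.445 to 0.738 times those in Vec. Over all genes tested, 15.5% were called in this comparison at an adjusted p under 0.05 (edgeR, Benjamini-Hochberg over all genes), and 7.88% were called lower. The median log2 fold change was −0.65 for the 9 genes and −0.01 for all genes tested. Expression is per liver RNA, so fewer hepatocytes and less RNA per hepatocyte cannot be told apart.

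Mat1a, the liver enzyme for SAM synthesis, was measured at 6440, 7440, 4460, 9400 and 5660 CPM in the Vec livers and at 3510, 3660, 4200, 3760 and 4170 CPM in the Vec+BBR livers. The groups did not overlap, and the Vec mice varied far more than the BBR-treated mice (6680 ± 1870 and 3860 ± 312 CPM, SD, n = 5). Mat1a fell by 0.79 on the log2 scale (SE 0.16, adjusted p = 0.00257). Mat2a, the form of other tissues, behaved differently, with 65.5, 76.3, 91.9, 83.9 and 127 CPM in Vec and 88.1, 93.3, 81.8, 94.4 and 89.6 CPM in Vec+BBR. The Vec range enclosed all Vec+BBR values, and the fitted log2 difference was 0.01 with a 95% interval of −0.30 to 0.32 (adjusted p = 0.983). As a description, the ratio of Mat1a to Mat2a in FPKM had a median of 70.5 in Vec (39.4 to 99.9), 35.3 in Vec+BBR (30.2 to 45.6), 53.4 in shRNA (48 to 66.7) and 37.1 in shRNA+BBR (33.6 to 49.8).

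Among the users of SAM, Gnmt, which disposes of surplus SAM, was at 1860, 2060, 1270, 2340 and 1720 CPM in Vec and at 1070, 1100, 1470, 1260 and 1510 CPM in Vec+BBR. The groups overlapped through Vec replicate 3. Gnmt fell by 0.53 on the log2 scale (SE 0.17, adjusted p = 0.0408), which is just inside the threshold. The call was lost when Vec replicate 1, 2 or 4 (adjusted p = 0.0667, 0.0988 and 0.104) or Vec+BBR replicate 1, 2 or 4 (adjusted p = 0.0719, 0.0932 and 0.0807) was left out. Pemt, which makes phosphatidylcholine from phosphatidylethanolamine, was at 276, 324, 294, 250 and 229 CPM in Vec and at 222, 173, 232, 193 and 193 CPM in Vec+BBR. Of the BBR-treated mice 4 were below every Vec mouse, and Vec+BBR replicate 3 was just above the lowest one. Pemt fell by 0.44 (SE 0.11, adjusted p = 0.00893).

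Ahcy, which clears S-adenosylhomocysteine, was at 3820, 4740, 2650, 4700 and 3200 CPM in Vec and at 2320, 1780, 2260, 1930 and 2310 CPM in Vec+BBR. The groups did not overlap. Ahcy fell by 0.85 on the log2 scale (SE 0.15, adjusted p = 0.00115), to 0.555 times the Vec level. Bhmt, which regenerates methionine from homocysteine and betaine, was at 8670, 7510, 7140, 7590 and 8520 CPM in Vec and at 5790, 3270, 5720, 4830 and 5590 CPM in Vec+BBR. These groups did not overlap either, and Vec+BBR replicate 2 was the lowest of all 20 livers. Bhmt fell by 0.65 (SE 0.13, adjusted p = 0.00221). Mat1a, Ahcy and Bhmt were thus the 3 genes that did not overlap between the groups, with Vec+BBR lower, as did 4.24% of all genes tested.

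The transsulfuration pair, which turns homocysteine into cystathionine and then cysteine, showed the widest spread. Cbs was at 538, 557, 259, 539 and 313 CPM in Vec and at 277, 285, 273, 226 and 303 CPM in Vec+BBR. Vec replicate 3 lay among the BBR-treated mice, and the other 4 Vec mice lay above them all. Cbs fell by 0.69 on the log2 scale (SE 0.18, adjusted p = 0.0141). Cth was at 976, 1010, 303, 1320 and 520 CPM in Vec and at 502, 309, 327, 314 and 387 CPM in Vec+BBR. Here Vec replicate 3 was lower than every BBR-treated mouse. Cth fell by 1.17 (SE 0.28, adjusted p = 0.0083), to 0.445 times the Vec level, the largest fitted fall of the 9 genes.

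Shmt1, the cytosolic serine hydroxymethyltransferase, was at 225, 238, 210, 194 and 224 CPM in Vec and at 205, 159, 193, 176 and 183 CPM in Vec+BBR. Only Vec+BBR replicate 1 reached the Vec range. The log2 difference was −0.25 (SE 0.09) with an adjusted p of 0.0536, outside the threshold. It passed without Vec replicate 3 or 4 (adjusted p = 0.0445 and 0.0368) and without Vec+BBR replicate 1 (adjusted p = 0.0263). It also passed by DESeq2 (adjusted p = 0.0253).

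**Figure D1:**
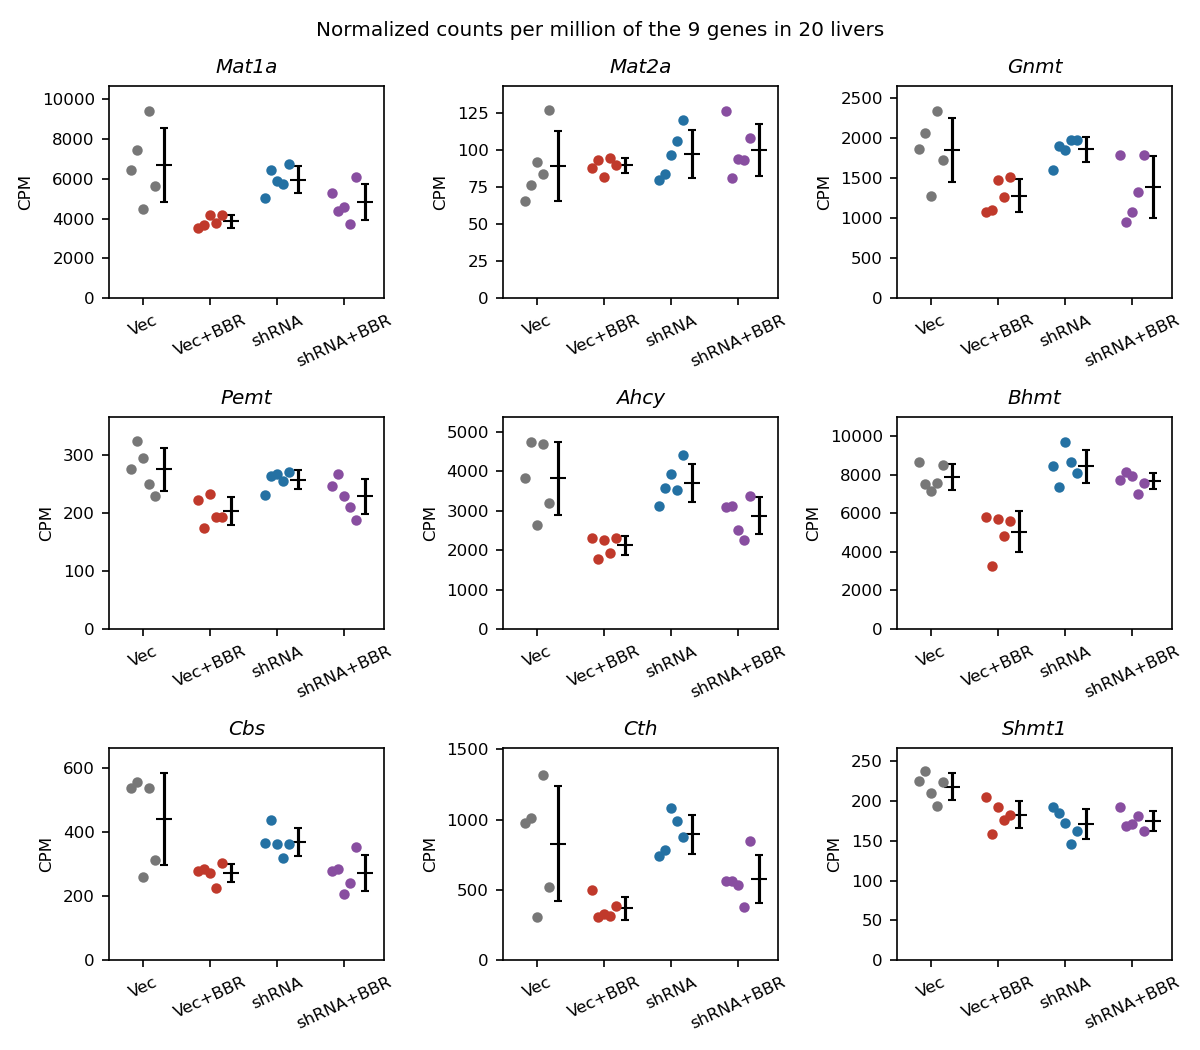
Normalized CPM (y axis, from 0) of each of the 9 genes in the 5 livers of each group (x axis). Points are livers in the order of their replicate numbers, and the bar beside them is the mean with 1 SD. Mat1a, Ahcy and Bhmt do not overlap between Vec and Vec+BBR, and the third Vec liver lies low for Mat1a, Gnmt, Ahcy, Cbs and Cth.

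Vec replicates 3 and 5 were the lowest and second lowest Vec mice for Gnmt, Mat1a, Ahcy, Cbs and Cth. The same 2 livers had the highest Pparg of the group, 35.9 and 32.1 CPM. Without Vec replicate 3 the log2 difference was −1.39 for Cth, −0.96 for Ahcy, −0.92 for Mat1a, −0.84 for Cbs and −0.65 for Gnmt, and 8 of the 9 genes were called. Leaving out the lowest Vec liver enlarges such falls, and these were the largest falls of all alternative fits. The smallest were −0.93 for Cth, −0.72 for Ahcy, −0.64 for Mat1a, −0.55 for Cbs and −0.40 for Gnmt. With any 1 mouse left out, 6 to 8 of the 9 genes were called. Most markers of the zones of the liver lobule were also lower in Vec+BBR. Of 6 pericentral markers, 5 were lower in Vec+BBR, with a summed level of 9430 to 18000 CPM in Vec and 6320 to 8650 CPM in Vec+BBR, and of 6 periportal markers 4 were lower, with 6540 to 12900 CPM and 5750 to 6350 CPM. Of the 7 hepatocyte markers 2 were lower, from 119000 to 152000 CPM in Vec and from 90700 to 126000 CPM in Vec+BBR. Stellate cell markers summed to 226 to 398 CPM in Vec and 429 to 457 CPM in Vec+BBR with 2 of 8 called higher, endothelial markers to 77.1 to 102 CPM and 96.8 to 131 CPM with 3 of 6 higher, and cholangiocyte markers to 24 to 45.3 CPM and 50.3 to 96.6 CPM with 1 of 5 higher. Kupffer cell and macrophage markers summed to 98.3 to 266 CPM and 129 to 205 CPM, with 2 of 7 lower and 1 higher, and T and B cell markers to at most 2.76 CPM and 1.24 CPM, with 1 of the 2 tested lower. Acinar pancreas markers summed to 2.31 to 3.78 CPM and 4 to 5.78 CPM, with the 1 tested higher, and the 3 erythroid markers to 432 to 906 CPM and 522 to 1580 CPM. Some of these sums rested mostly on 1 gene. Over all livers, the cholangiocyte marker Spp1 was at 21.8 to 91.9 CPM. Krt19, Krt7, Epcam and Sox9 each stayed at or below 2.24 CPM. The cholangiocyte sums thus follow Spp1 and cannot tell whether cholangiocytes changed. Alb (75100 to 124000 CPM) made up most of the hepatocyte sums, and Cela1 (2.31 to 5.64 CPM) most of the acinar sums. The part of these marker shifts in the changes of the 9 genes was not tested.

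The second comparison, shRNA against Vec, asks what the Pparg shRNAs changed without the drug. Of the 9 genes, only Shmt1 was called, and it was lower, while 13.2% of all genes tested were called and 7.91% were called lower. Shmt1 was at 192, 185, 172, 146 and 162 CPM in the shRNA livers against 194 to 238 CPM in Vec. The groups did not overlap, although the highest shRNA liver and the lowest Vec liver were almost level, and 5.01% of all genes tested were lower without overlap. Shmt1 fell by 0.35 on the log2 scale (SE 0.09, adjusted p = 0.0111) and was also called when any single mouse was left out.

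The other 8 genes had log2 differences from −0.25 for Cbs to 0.13 for Mat2a, with adjusted p-values from 0.38 to 0.984, and the median of the 9 was −0.04. Bhmt was at 8430, 7340, 9670, 8640 and 8110 CPM in the shRNA livers (8440 ± 848 CPM, SD, n = 5), a log2 difference of 0.10 from Vec with an interval of −0.17 to 0.36. Mat1a was at 5040, 6430, 5870, 5730 and 6740 CPM, with a difference of −0.16 and an interval of −0.50 to 0.17. The Mat1a values lay inside the Vec range, and those of Bhmt overlapped with it. For Cth the interval, −0.47 to 0.69, was the widest of the 9, so that a change of moderate size in either direction was not detectable. Markers moved in this comparison too. Pericentral markers summed to 6380 to 8720 CPM in shRNA against 9430 to 18000 CPM in Vec, without overlap and with 2 of 6 called lower. That sum depends most on Cyp2e1 and Oat, at 2800 to 12000 and 495 to 5100 CPM over all livers. Axin2, by contrast, was at 2.19 to 6.9 CPM, so the sum cannot tell whether all pericentral markers moved. Endothelial markers summed to 110 to 138 CPM against 77.1 to 102 CPM, without overlap and with 3 of 6 called higher. Of the stellate cell and the macrophage markers 1 each was lower, and no periportal, hepatocyte or cholangiocyte marker was called. The part of these shifts in the Shmt1 difference was not tested.

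The third comparison, shRNA+BBR against Vec+BBR, asks whether BBR-treated livers with less Pparg had other levels than BBR-treated livers with the non-targeting vector. Bhmt was higher, the only one of the 9 genes called, where 8.13% of all genes tested were called and 3.31% were called higher. Bhmt was at 7710, 8140, 7940, 7000 and 7570 CPM in the shRNA+BBR livers against 3270 to 5790 CPM in Vec+BBR. The groups did not overlap, as for 3.28% of all genes tested that were higher without overlap. The fitted log2 difference was 0.61 (SE 0.13, adjusted p = 0.00659), or 1.52-fold, and it was also called when any single mouse was left out. The shRNA+BBR mean of 7670 ± 433 CPM (SD, n = 5) was near the Vec mean of 7890 ± 670 CPM, and these 2 groups were not tested against each other.

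Ahcy was at 3100, 3110, 2500, 2270 and 3380 CPM in shRNA+BBR, and only replicate 4 was within the Vec+BBR range. Its log2 difference of 0.44 (SE 0.15) missed the threshold with an adjusted p of 0.0776, and it was called without shRNA+BBR replicate 4 (adjusted p = 0.0459). Cth was at 562, 565, 536, 379 and 848 CPM, of which 4 were above all Vec+BBR livers, with a difference of 0.65 (SE 0.28, adjusted p = 0.153). Mat1a was at 5280, 4390, 4590, 3750 and 6100 CPM, with a difference of 0.32 (SE 0.16, adjusted p = 0.219). Gnmt, Pemt, Mat2a and Shmt1 had differences from −0.06 to 0.17 with adjusted p-values of 0.344 to 0.723. Cbs was at 280, 284, 206, 241 and 355 CPM, with the same mean as Vec+BBR, 273 CPM in both, and the fitted difference was 0.00 with an interval of −0.37 to 0.38. The median of the 9 was 0.17. Pericentral markers summed to 4340 to 8480 CPM in shRNA+BBR, overlapping with Vec+BBR, while periportal markers summed to 6250 to 10400 CPM with 2 of 6 called higher. Their part in the Bhmt difference was not tested.

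The fourth comparison, shRNA+BBR against shRNA, gives the BBR effect in livers that carried the Pparg shRNAs. None of the 9 genes was called by edgeR, against 15.7% of all genes tested, and DESeq2 and limma-voom also called 0. At an unadjusted p under 0.05 there were 4, all lower with BBR: Gnmt (log2 difference −0.42), Ahcy (−0.37), Cbs (−0.44) and Cth (−0.63), with adjusted p-values of 0.0935, 0.0974, 0.0975 and 0.121. Gnmt was at 1600, 1900, 1850, 1980 and 1970 CPM in shRNA and at 1790, 955, 1080, 1320 and 1790 CPM in shRNA+BBR, where 2 livers stood near the shRNA level and 3 well below it. The 3 low livers, shRNA+BBR replicates 2, 3 and 4, also differed in other ways. Mitochondrial genes took 16.2%, 14.6% and 12.7% of their counts, against 10.2% and 11.9% in replicates 1 and 5, so replicate 4 was near replicate 5. The 10 most abundant genes took 28.9%, 29% and 29.7%, against 24.9% and 24.6%. Pparg was at 9.99, 21.8 and 18.9 CPM in replicates 2, 3 and 4, against 11.4 and 7.19 CPM in replicates 1 and 5. Cth was at 742, 783, 1080, 989 and 874 CPM in shRNA, and 4 of the 5 shRNA+BBR livers were below all of these. Cbs was at 367, 439, 364, 319 and 364 CPM in shRNA, with again 4 of the 5 shRNA+BBR livers below. Without shRNA+BBR replicate 5, Gnmt and Cbs were called (adjusted p = 0.0393 and 0.043), and without shRNA+BBR replicate 1 Gnmt was (adjusted p = 0.0443). Bhmt and Pemt had differences of −0.14 and −0.17, with intervals of −0.40 to 0.13 and −0.40 to 0.05. The median of the 9 was −0.31. Stellate cell markers summed to 304 to 355 CPM in shRNA and 369 to 496 CPM in shRNA+BBR, without overlap and with 3 of 8 called higher. Of the endothelial markers 1 was higher and 2 were lower. Of the cholangiocyte and macrophage markers 1 each was higher, and of the periportal and hepatocyte markers 1 each was lower. The part of these markers, of the library differences and of the Pparg levels was not tested.

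The last comparison set the 2 BBR effects against each other, that in shRNA livers minus that in Vec livers. None of the 9 genes was called by edgeR, DESeq2 or limma-voom, and edgeR called 0.146% of all genes tested. The 9 fitted differences were all positive, from 0.04 for Mat2a to 0.54 for Cth, with a median of 0.29. They share their control and treated groups with the other comparisons and are no separate evidence. At an unadjusted p under 0.05 there were 4, namely Bhmt (0.51, adjusted p = 0.155), Mat1a (0.49, adjusted p = 0.256), Ahcy (0.48, adjusted p = 0.241) and Shmt1 (0.29, adjusted p = 0.226). The interval for Bhmt was 0.13 to 0.88. That 7 genes passed with BBR in Vec livers and none in shRNA livers is therefore not shown to be a difference between the vectors.

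**Figure D2:**
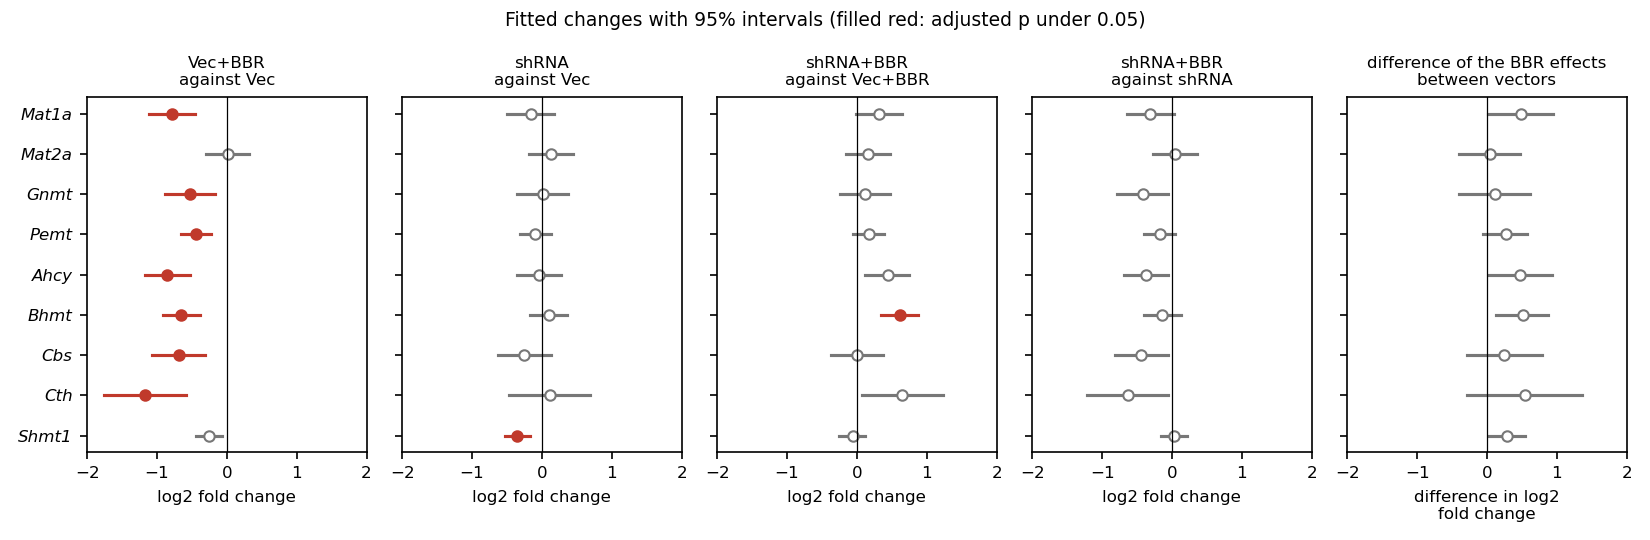
Fitted log2 fold changes (x axis) of the 9 genes (rows) in the 5 comparisons (panels), with 95% intervals. Filled red points have an adjusted p under 0.05: 7 genes in Vec+BBR against Vec, Shmt1 in shRNA against Vec and Bhmt in shRNA+BBR against Vec+BBR.

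The vehicle groups Vec and shRNA had the highest means, followed by shRNA+BBR and then Vec+BBR, for Bhmt, Gnmt, Pemt, Mat1a, Ahcy and Cth. Cbs had the same order of means, but its 2 BBR groups were level at 273 CPM. Shmt1 followed another order, with Vec highest at 218 ± 16.9 CPM and Vec+BBR (183 ± 17.2), shRNA+BBR (175 ± 12) and shRNA (171 ± 18.6 CPM, SD, n = 5) within 1 SD of each other. For Mat2a the 4 means, from 89 to 100 CPM, differed by less than the SD of the Vec mice (23.6 CPM).

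The 9 genes also differed in how they varied among livers of the same group. After each group's mean was removed from log2 CPM, Pearson's r over the 20 livers was 0.85 between Mat1a and Ahcy, 0.85 between Ahcy and Cth, 0.80 between Gnmt and Mat1a, 0.80 between Mat1a and Cth, and 0.79 between Cbs and Cth. Livers that were high for one of Mat1a, Gnmt, Ahcy, Cbs and Cth thus tended to be high for the others. The lowest r among these 5 was 0.56, between Gnmt and Cth. Not every liver followed this. Vec+BBR replicate 1 was the lowest of its group for Mat1a (3510 CPM) and Gnmt (1070 CPM) and the highest for Ahcy (2320 CPM) and Cth (502 CPM). For Cth the SD was 49.6% of the mean in Vec, against 22% in Vec+BBR, 15.8% in shRNA and 29.3% in shRNA+BBR. The share of single groups in these r was not tested. Bhmt, although it fell with these 5 genes in Vec+BBR, reached at most 0.38, with Shmt1. Pemt reached at most 0.37, and the r of Mat2a lay between −0.42, with Cbs, and 0.23, with Gnmt. All values of a liver share its library, depth and RNA quality, so these correlations are a description and carry no test.

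**Figure D3:**
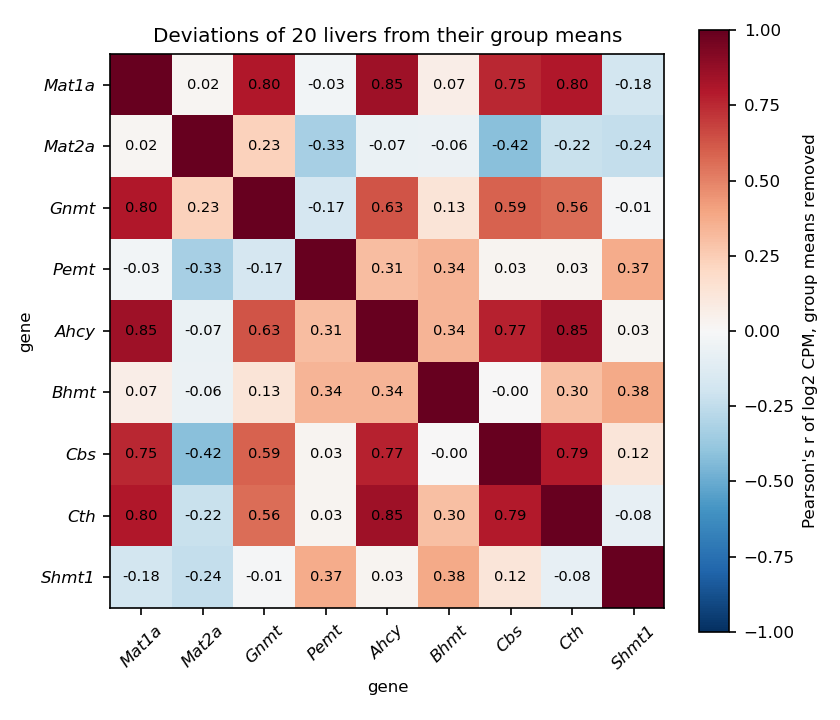
Pearson's r between each pair of the 9 genes (both axes) over 20 livers, from log2 CPM after the group means were removed. Red is positive and blue negative. Mat1a, Gnmt, Ahcy, Cbs and Cth form a block with r from 0.56 to 0.85, while Bhmt, Pemt, Shmt1 and Mat2a stand outside it.

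The other genes of these pathways were described by 6 lists with 88 genes, of which 85 were tested. In Vec+BBR against Vec, 9 were higher and 20 lower, 34.1% of those tested, against 15.5% of all genes tested. The share called was 77.8% for betaine and glycine methyl oxidation and 72.7% for transsulfuration and the use of cysteine. It was 28.6% for other SAM consumers and polyamines and 25% for folate. It was 16.7% for phosphatidylcholine and ethanolamine and 15.4% for the methionine cycle and salvage. The list of betaine and glycine methyl oxidation, the route by which choline is oxidised to betaine and the methyl groups left on glycine are burned, had 5 of 9 genes lower and 2 higher. Pipox, the peroxisomal sarcosine oxidase, was at 185 to 364 CPM in Vec and 117 to 167 CPM in Vec+BBR, without overlap (log2 difference −0.98, SE 0.14, adjusted p = 0.000243). Sardh (−0.78, adjusted p = 0.00475) and Dmgdh (−0.58, adjusted p = 0.00179), the mitochondrial sarcosine and dimethylglycine dehydrogenases downstream of Gnmt and Bhmt, were lower, and so was the betaine transporter Slc6a12 (−0.51, adjusted p = 0.00522). Aldh7a1, which can make betaine from betaine aldehyde and is named after its values were seen, was lower as well, at 561 to 827 CPM in Vec and 458 to 557 CPM in Vec+BBR (−0.48, adjusted p = 0.0118). The 2 that rose were the choline transporter Slc44a1 (0.64, adjusted p = 0.00166) and choline dehydrogenase, Chdh, at 123 to 176 CPM in Vec and 188 to 239 CPM in Vec+BBR (0.59, adjusted p = 0.002).

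Of 11 genes for transsulfuration and the use of cysteine, 6 were lower in Vec+BBR and 2 higher. Csad, which makes the taurine precursor hypotaurine from cysteine sulfinate, had the largest rise of these lists, with 12.7, 14.5, 33.7, 7.76 and 22 CPM in Vec and 75.5, 67.1, 116, 106 and 128 CPM in Vec+BBR. The groups were far apart, and the fitted change was 5.42-fold (adjusted p = 0.00025). Gclc, the catalytic subunit of glutamate-cysteine ligase for glutathione, was 1.57-fold higher (adjusted p = 0.000979). Lower were the sulfur oxidation genes Tst (−0.83, adjusted p = 0.00013), Ethe1 (−0.83, adjusted p = 0.00426) and Mpst (−0.38, adjusted p = 0.0125), and the cytosolic transaminase Got1 (−1.78, adjusted p = 0.00848). Got1 had 111 and 166 CPM in Vec replicates 3 and 5 and 585 to 866 CPM in the other 3 Vec livers, against 85.2 to 201 CPM in Vec+BBR.

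In the folate list 4 of 20 genes were lower and 1 higher. Aldh1l1, which oxidises formyl-tetrahydrofolate, fell by 0.71 (adjusted p = 0.00221) and the trifunctional Mthfd1 by 0.51 (adjusted p = 0.00189), while Mthfd1l, the mitochondrial formate producer, rose 2.09-fold from a low level of 1.35 to 5.39 CPM (adjusted p = 0.0151). Of 18 genes of phosphatidylcholine and ethanolamine metabolism, Etnk2 (−0.91, adjusted p = 0.00246) and Etnppl (−0.97, adjusted p = 0.00525), which make and degrade phosphoethanolamine, were lower and Pisd, the phosphatidylserine decarboxylase, was higher (0.48, adjusted p = 0.00659). Of 14 other SAM consumers and polyamine genes 1 was lower, the nicotinamide methyltransferase Nnmt, to 0.375 times the Vec level (adjusted p = 0.00166), and 3 were higher, the DNA methyltransferase Dnmt3a (0.51), the histamine methyltransferase Hnmt (0.40) and spermine synthase, Sms (0.44), with adjusted p-values of 0.0402, 0.0418 and 0.0401. Of the 13 genes of the cycle and the salvage of methionine that are not among the 9, Bhmt2 (−0.37, adjusted p = 0.0186) and Mat2b (−0.26, adjusted p = 0.0438) were lower and none was higher. This list and the phosphatidylcholine list, with 15.4% and 16.7% called, were near the 15.5% of all genes tested.

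In shRNA against Vec, 5 of the 85 genes were higher and 11 lower, 18.8%, against 13.2% of all genes tested. The share called was 22.2% in the phosphatidylcholine list. The phosphatidylcholine list had 4 genes lower and none higher: Lpcat3, which remodels phosphatidylcholine, at 66.2 to 94.8 CPM against 137 to 199 CPM in Vec (−0.95, adjusted p = 3.65e-05), Chpt1, the cholinephosphotransferase (−0.63, adjusted p = 0.000561), Phospho1, the phosphocholine phosphatase (−1.43, adjusted p = 0.0136), and Pisd (−0.37, adjusted p = 0.0319). The SAM consumer Gamt, which makes creatine, was lower (−0.61, adjusted p = 0.0105), as was Sms (−0.63, adjusted p = 0.00707), whereas Dnmt3a (0.68, adjusted p = 0.0091) and ornithine decarboxylase, Odc1 (0.48, adjusted p = 0.0154), were higher. In the folate list, Gldc, of the glycine cleavage system (0.66, adjusted p = 0.000852), and Mthfd2l (0.66, adjusted p = 0.00699) were higher and Shmt2, the mitochondrial relative of Shmt1, was lower (−0.26, adjusted p = 0.0198). Of the sulfur genes, Mpst was lower (−0.75, adjusted p = 4.47e-05) and Ethe1 higher (0.56, adjusted p = 0.0402). In the remaining lists the carrier Slc6a13 (−0.40, adjusted p = 0.0109) and the salvage enzyme Mtap (−0.30, adjusted p = 0.0422) were lower.

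In shRNA+BBR against Vec+BBR, 9 of the 85 were higher and 4 lower, 15.3%, against 8.13% of all genes tested. Pipox was at 204 to 266 CPM in shRNA+BBR against 117 to 167 CPM in Vec+BBR (0.72, adjusted p = 0.00417), Dmgdh was higher by 0.38 (adjusted p = 0.0383), and Chdh was lower by 0.62 (adjusted p = 0.00291). Ethe1 (0.85, adjusted p = 0.00678) and Tst (0.52, adjusted p = 0.00713) were higher and Gclc lower (−0.66, adjusted p = 0.0015). Higher too were Nnmt (1.24, adjusted p = 0.00714), the choline kinase Chka (1.09, adjusted p = 0.013), Etnppl (0.94, adjusted p = 0.0115), Mthfd2l (0.62, adjusted p = 0.0192) and the polyamine acetyltransferase Sat1 (0.49, adjusted p = 0.00387). Pisd (−0.76, adjusted p = 0.000504) and Lpcat3 (−0.48, adjusted p = 0.0181) were lower. The list of methionine cycle and salvage had no gene called by edgeR, with 4 of 13 at an unadjusted p under 0.05.

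In shRNA+BBR against shRNA, 8 of the 85 were higher and 13 lower, 24.7%, against 15.7% of all genes tested. Sardh (−0.75, adjusted p = 0.0102), Pipox (−0.46, adjusted p = 0.0341), Slc6a12 (−0.43, adjusted p = 0.0172) and Dmgdh (−0.34, adjusted p = 0.0434) were lower here as well, and Csad was 2.86-fold higher (adjusted p = 0.00957). Phospho1 was 4.04-fold higher, at 8.22 to 19 CPM against 1.05 to 4.74 CPM in shRNA (adjusted p = 0.00379), and Chpt1 (0.47, adjusted p = 0.00994) and Lpcat3 (0.41, adjusted p = 0.0294) were higher too. In the folate list Aldh1l1 (−0.58, adjusted p = 0.0129), Mthfd1 (−0.35, adjusted p = 0.0238), Ftcd (−0.53, adjusted p = 0.0264) and Gldc (−0.40, adjusted p = 0.028) were lower. Methionine synthase, Mtr, was lower too (−0.53, adjusted p = 0.0329), and so was Mat2b (−0.31, adjusted p = 0.0229). Of the sulfur genes, Suox (−0.55, adjusted p = 0.017), Sqor (−0.41, adjusted p = 0.0196) and Ethe1 (−0.55, adjusted p = 0.0427) were lower and glutathione synthetase, Gss, was higher (0.34, adjusted p = 0.0403). Gamt (0.48, adjusted p = 0.0375) and Sms (0.62, adjusted p = 0.0111) were higher. This count of 21 genes was 7 without shRNA+BBR replicate 3 and 30 without shRNA+BBR replicate 5.

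For the difference between the 2 BBR effects, edgeR called none of the 85, against 0.146% of all genes tested. DESeq2 called 5 of the 85, and 21 had an unadjusted p under 0.05 by edgeR. The closest were Tst (0.69, adjusted p = 0.0649), Mpst (0.62, adjusted p = 0.0649) and Gclc (−0.64, adjusted p = 0.0875).

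**Figure D4:**
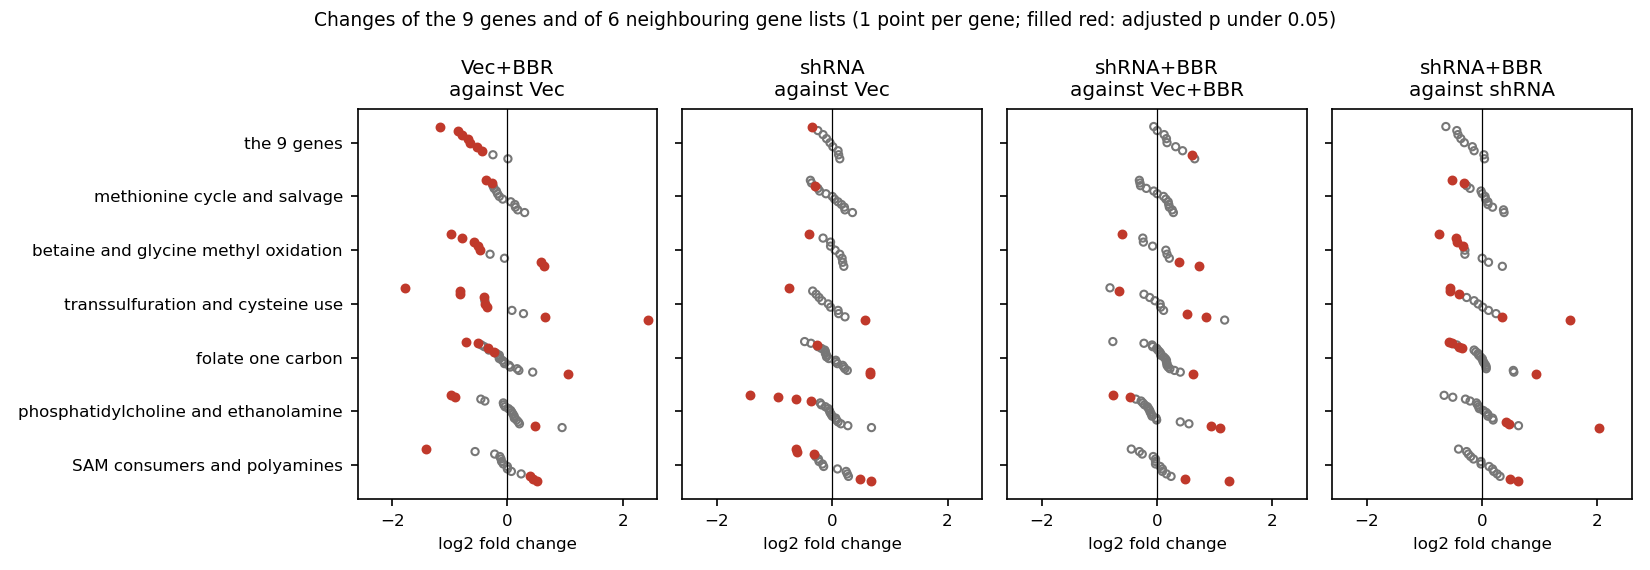
Log2 fold changes (x axis) of the 9 genes and of the tested genes of 6 lists (rows) in 4 comparisons (panels), 1 point per gene, filled red where the adjusted p is under 0.05. In Vec+BBR against Vec, 7 of the 9 genes and 20 of the 85 list genes are red on the lower side, and Csad lies farthest to the right.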

How the data were processed

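Livers of 20 mice were sequenced by the authors as poly(A)-selected libraries with a kit that does not mark strand, and GEO's labels call the 5 mice of a group biological replicates. Per the file headers, the deposited expected counts per gene were estimated by the authors, with reads that match several genes divided, and are not normalized. The deposited FPKM values were scaled by the authors for transcript length and library size, and were used for levels between genes only. The aligner and counting program are not given in the sources used here, and mm10 is the genome build in the submitters' processing notes. Counts of Bhmt and Ahcy were not whole in any of the 20 libraries, and those of Shmt1 were not whole in 7. Some of their reads were thus probably shared with other entries. No pair of 40 within groups looked like a library deposited again (lowest chi-square per gene 14.8).

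Counts were rounded and filtered with filterByExpr (minimum count 10, minimum total 15), scaled with TMM factors (0.873 to 1.14) and fitted with edgeR 4.0.16 (R 4.3.3) by the quasi-likelihood test, with a mean per group over all 20 libraries and Benjamini-Hochberg adjustment over 12342 genes at 0.05. Log2 fold changes, SEs and intervals are from this fit. The script was tested on simulated data. Alternatives were other size factors, library totals, DESeq2 1.42.0, limma-voom 3.58.1, no filter, a stricter filter, the compared groups alone, a replicate block, and each mouse left out. All 9 genes are named. Of each pathway list, up to 6 called genes with the smallest p are named per comparison, and the 2 genes most like each of the 9 by correlation; some genes that these rules select are not reported here, but counts include them. The 9 genes and all lists were chosen with earlier results of these data known. Promoter motifs were searched on both strands, and the DR1 element contains AGGTCA.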

Additional observations from a re-analysis of the deposited data

How the results depend on the processing

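Of 891 alternative values for the 9 genes, 830 kept their direction and their side of the threshold, and no called value changed sign. With BBR in Vec livers, 6 to 8 of the 9 genes were called under every alternative, and the call of Gnmt was also lost with library totals (−0.40, adjusted p = 0.131), without the filter, with the compared groups alone and with the replicate block. In shRNA+BBR against Vec+BBR, 1 gene was called, 2 by DESeq2 (Bhmt and Ahcy), 3 with the compared groups alone (with Cth) and 1 to 2 with 1 mouse left out. In shRNA+BBR against shRNA, 0 were called, 2 with the compared groups alone (Cbs and Cth) and 0 to 2 with 1 mouse left out. Of 30 correlations between livers with the same replicate number, 5 were above 0.1, and all lay from −0.3 to 0.26. Livers with different numbers were not correlated for reference, so whether the numbers pair the mice was not settled. With the number as a replicate block, 7, 1, 1 and 0 genes were called in the first 4 comparisons. Of the 7 in Vec+BBR against Vec only 6 were the same, because Gnmt was lost and Shmt1 was called. DESeq2 called Shmt1 there as well. Library totals moved the median of all genes by 0.13 in Vec+BBR against Vec, where 1831 genes were then higher and 459 lower in place of 936 and 972, by 0.10 in shRNA against Vec and by −0.15 in the difference of the BBR effects. Under library totals, uncalled differences changed sign for Pemt (0.02) and Ahcy (0.06) in shRNA against Vec, for Cbs in shRNA+BBR against Vec+BBR (−0.04), and for Gnmt (−0.02) and Mat2a (−0.10) in the difference of the BBR effects. Cbs in shRNA+BBR against Vec+BBR was also −0.01 by limma-voom, 0.00 without the filter and −0.01 with the replicate block. With 1 mouse left out, uncalled differences that crossed 0 ranged from −0.10 to 0.17 for Mat2a in Vec+BBR against Vec, in shRNA against Vec from −0.10 to 0.11 for Gnmt, −0.15 to 0.05 for Ahcy and −0.10 to 0.35 for Cth, from −0.11 to 0.10 for Cbs in shRNA+BBR against Vec+BBR, in shRNA+BBR against shRNA from −0.05 to 0.13 for Mat2a and −0.02 to 0.08 for Shmt1, and in the difference of the BBR effects from 0.00 to 0.23 for Gnmt and −0.13 to 0.15 for Mat2a. The causes were not tested. Over all genes, the count called moved from 1908 to 1178 with the compared groups alone and to 1237 to 2395 with 1 mouse left out in Vec+BBR against Vec. With 1 mouse left out it moved from 1628 to 1015 to 2284 in shRNA against Vec, from 1004 to 538 to 1129 in shRNA+BBR against Vec+BBR and from 1932 to 661 to 2527 in shRNA+BBR against shRNA. For the difference of the BBR effects 18 became 338 by DESeq2, 30 with library totals, 11 by limma-voom and 5 to 122 with 1 mouse left out. The pathway genes called for that difference were 5 by DESeq2 and 0 to 3 with 1 mouse left out.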

Other observations

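Each of the 9 genes was also set beside all other tested genes, over the 20 livers with group means removed, and those of the 2 with the highest Pearson's r that are reported here are given as a description, without a test. Cth varied most like Etnppl (0.96), which degrades phosphoethanolamine. Cbs varied most like Etnk2 (0.95), an ethanolamine kinase, and Dhrs11 (0.93). Ahcy varied most like the secreted plasma proteins Hrg (0.97) and F7 (0.96), and Mat1a like Smim13 (0.94) and the complement gene C3 (0.93). Gnmt varied most like Mug1 (0.91), a plasma protease inhibitor, and Mb21d2 (0.89). Pemt varied most like Fau (0.93), which encodes a ribosomal protein, and Ccs (0.93), the copper chaperone of superoxide dismutase. The values were lower for Bhmt, with Uqcrc2 (0.81), a subunit of respiratory complex III, and Cmbl (0.79). By Spearman's rank correlation these 2 were 0.66 and 0.61. For Mat2a Pearson's r was 0.90 with Chrna2, where Spearman's was 0.76, and 0.84 with Caprin1. For Shmt1 it was 0.84 with Phf19, whose mean was only 0.753 CPM, and 0.83 with Bet1l. Genes of a liver share its library, so these values are not independent of depth or RNA quality.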
